A study of Homo sapiens with 12 samples.

Results

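The genes described here make and load major histocompatibility complex (MHC) class I molecules. They were 9 genes chosen by name from the 54261 genes of the total RNA count table, and 8 of the 9 had enough counts to be tested. HLA-B, HLA-C and HLA-E encode heavy chains and B2M the light chain. TAP1 and TAP2 encode the peptide transporter, TAPBP encodes tapasin, ERAP1 encodes a peptide-trimming enzyme, and NLRC5 encodes a transcriptional activator of these genes. Levels were compared between HCT116oxR cells and HCT116 cells, with 3 total RNA and 3 small RNA libraries of each line. HCT116 is a human colorectal carcinoma line. HCT116oxR was derived from it by growth in oxaliplatin, a platinum drug that forms DNA adducts, beginning at 0.1 µmol/L and ending at 5 µmol/L, kept for 1 year. Per the series' design text the replicates of each line were separate cultures, all resistant ones from 1 line, so a p-value here reflects culture-to-culture spread and says nothing of other resistant lines.

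MHC class I molecules carry peptides cut from the cell's own proteins to the cell surface, where CD8+ T cells read them. The proteasome cuts the peptides, TAP1 and TAP2 pump them into the endoplasmic reticulum, ERAP1 trims their ends, and tapasin holds an empty heavy chain with B2M beside the transporter until a fitting peptide is bound. HLA-B and HLA-C are classical heavy chains, whereas HLA-E mainly presents leader peptides of other heavy chains and is read by NKG2A on natural killer cells. Reduced class I presentation is a well-known way in which colorectal carcinomas, in particular those with mismatch repair defects, avoid T cells.

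Total counts were 11950069 to 13558077 in total RNA (6 libraries) and 16089595 to 18147051 in small RNA. Of 12 markers of colorectal epithelial cells, 8 passed the filter on low counts, among them EPCAM, KRT8, KRT18, KRT19 and CDX2, while CEACAM5 was at 0 in every library and CDX1 and VIL1 had at most 2 counts in any library. Of these markers 4 were higher, 1 was lower and 3 did not pass the test, where 44.1% of all genes tested passed. Summed leukocyte markers came to 88 to 123 counts in HCT116oxR libraries and 162 to 213 counts in HCT116 libraries, most of them from CD68, and PTPRC, CD3E, CD3D, MS4A1 and CD2 were at 0 throughout. Of the 12 leukocyte markers, CD68 and ITGAM passed the filter and both were lower in HCT116oxR, ITGAM not without HCT116 replicate 2 (log2 fold change -0.88, edgeR adjusted p = 0.0906). Of 10 fibroblast and endothelial markers 3 were tested and COL1A1 was lower (log2 fold change -0.30 ± 0.07, SE), with 622 to 744 summed counts in HCT116oxR libraries and 707 to 874 counts in HCT116 libraries. Some genes that every cell uses were almost uncounted in this table. CANX, the gene of the chaperone calnexin, had at most 4 counts in any library, and HSP90B1, chosen after its values were seen, had at most 8 counts. A low count here therefore does not show that a gene is silent.

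The heavy chain genes HLA-B, HLA-C and HLA-E rose in HCT116oxR, while TAP2, TAPBP and ERAP1 fell. HLA-B was 1.51-fold and HLA-C 1.41-fold higher in HCT116oxR, and HLA-E was 1.15-fold higher. ERAP1 fell 2.13-fold, TAPBP 1.35-fold and TAP2 1.13-fold. For B2M and TAP1 no difference was called. Levels are given below as CPM (counts scaled to the library size, corrected by TMM factors), and fold changes are HCT116oxR over HCT116 from edgeR's quasi-likelihood test, with Benjamini-Hochberg adjusted p over all 17511 genes tested. Of the 8 tested members, 3 were higher and 3 were lower. Over all genes tested 44.1% were called, 22.3% higher and 21.8% lower, so that a called gene was common in this comparison. The median log2 fold change was 0.05 over the tested members and -0.00057 over all genes. In bulk RNA, fewer cells that carry a transcript cannot be told apart from less transcript in each cell.

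HLA-B encodes one of the classical heavy chains that present peptides to CD8+ T cells. Its level was 115, 103 and 102.6 CPM in HCT116oxR libraries 1 to 3, against 68.4, 71.6 and 73.5 CPM in HCT116 libraries 1 to 3. Every HCT116oxR library lay above every HCT116 library, and HCT116oxR library 1 was the highest. The log2 fold change was 0.59 ± 0.06 (SE, adjusted p = 3.01e-17), and 21.4% of all tested genes had a larger change in either direction.

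HLA-C encodes the other classical heavy chain measured here, which is also the main ligand of killer immunoglobulin-like receptors on natural killer cells. It had 186, 202 and 189.7 CPM in HCT116oxR libraries against 133, 134 and 142 CPM in HCT116 libraries. The libraries of the lines did not overlap. Its log2 fold change was 0.50 ± 0.04 (SE, adjusted p = 1.52e-19).

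HLA-E, the non-classical chain, moved less. It stood at 118, 119 and 110.8 CPM in HCT116oxR libraries and at 100.2, 104 and 98.7 CPM in HCT116 libraries. The groups were again separate, by a small margin. The log2 fold change was 0.20 ± 0.05 (SE, adjusted p = 7.76e-04).

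B2M encodes beta-2 microglobulin, the light chain that every class I heavy chain needs to reach the surface. Its level was 279, 285 and 287 CPM in HCT116oxR libraries and 287, 263 and 272 CPM in HCT116 libraries, so that the lines overlapped. The log2 fold change of 0.05 ± 0.04 (SE, adjusted p = 0.270) had a 95% interval of -0.02 to 0.12. That interval overlapped the interval of HLA-E (0.096 to 0.297), and B2M and HLA-E alone were not tested against each other.

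Of the transporter genes TAP2 fell by a small amount and TAP1 was not called. TAP1 had 40.9, 41.4 and 36.8 CPM in HCT116oxR libraries and 39.9, 38.9 and 36.7 CPM in HCT116 libraries, with a log2 fold change of 0.05 ± 0.08 (SE, adjusted p = 0.681, 95% interval -0.11 to 0.21). TAP2 had 91.9, 88.6 and 83.9 CPM in HCT116oxR libraries and 99.7, 99.3 and 98.8 CPM in HCT116 libraries. The TAP1 values overlapped between the lines and those of TAP2 did not. TAP2 fell by 0.17 ± 0.05 on the log2 scale (SE, adjusted p = 0.00636). That call was lost without HCT116oxR replicate 3, where the log2 fold change was -0.14 (edgeR adjusted p = 0.0706).

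TAPBP encodes tapasin, which bridges the heavy chain and the transporter and edits which peptide is kept. It had 111, 122.5 and 110.6 CPM in HCT116oxR libraries and 149.7, 148.5 and 168 CPM in HCT116 libraries. All HCT116oxR libraries were below all HCT116 libraries. The log2 fold change was -0.44 ± 0.05 (SE, adjusted p = 8.15e-14). The annotated end of TAPBP overlaps RGL2, which moved the other way (0.21 ± 0.07, adjusted p = 0.0136 in edgeR), and the use of strand in counting is not given in the sources used here.

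ERAP1 encodes the aminopeptidase of the endoplasmic reticulum that trims peptides to the length class I molecules hold. It had the largest change of the tested members, with 13.9, 7.98 and 12.3 CPM in HCT116oxR libraries against 22.4, 23.7 and 26.5 CPM in HCT116 libraries. HCT116oxR library 2 was the lowest, and no library of one line reached the other line's range. The log2 fold change was -1.09 ± 0.13 (SE, adjusted p = 3.40e-12), and 7.93% of all tested genes changed by more. Leaving out each library in turn gave -1.26 to -0.88. ERAP1 was also the 1 member that passed when the test was against a fold of 1.5 rather than against no change (edgeR glmTreat, adjusted p = 3.04e-04). Part of ERAP1 overlaps CAST in the annotation, for which no difference was called (log2 fold change -0.31 ± 0.20, SE, adjusted p = 0.222). The annotated span of ERAP1 also holds the whole of ERAP2, which was at 0 counts in every library.

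NLRC5, the activator that binds class I promoters together with the RFX complex, was close to uncounted. It had 6, 10 and 10 counts in HCT116oxR libraries and 0, 7 and 2 counts in HCT116 libraries, 26 against 9 in all, and was below the filter on low counts. With no filter its log2 fold change was 1.41 ± 0.81 (SE, edgeR adjusted p = 0.229), so no difference was detectable with these counts.

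**Figure D1:**
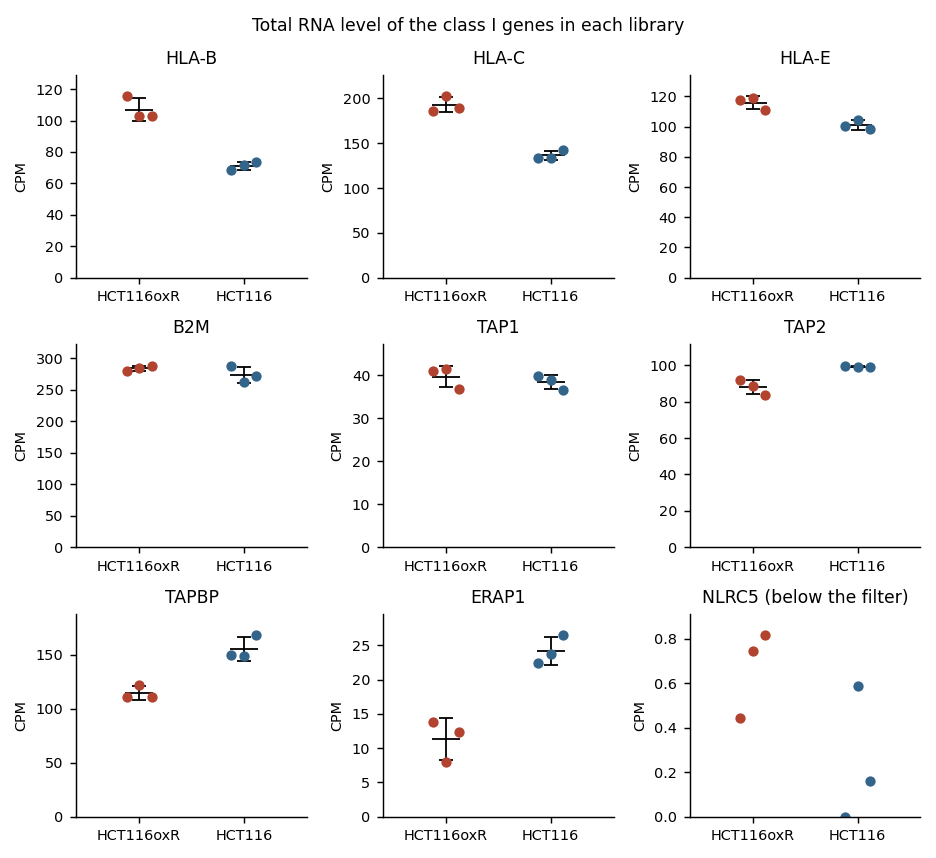
Level of each of the 9 class I genes (CPM, vertical axes from 0) in the 3 HCT116oxR libraries (red, left) and the 3 HCT116 libraries (blue, right). Points are libraries, with the mean and SD in black except for NLRC5, shown as unscaled CPM. HLA-B, HLA-C and HLA-E are higher and TAP2, TAPBP and ERAP1 lower in every HCT116oxR library, while B2M and TAP1 overlap.

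The libraries of the lines did not overlap for 6 of the 8 tested members, against 50.5% of all tested genes. Near-identical stretches in the heavy chain genes mean that reads could be split between HLA-B, HLA-C, HLA-E and further class I genes or pseudogenes, and the alleles of HCT116 may differ from the reference to which reads were aligned. These counts are uncertain to that extent. Among class I pseudogenes, which were added after values were seen, HLA-H rose (5.98 ± 1.18 CPM in HCT116oxR and 3.52 ± 0.892 CPM in HCT116, SD, n = 3 each, log2 fold change 0.76 ± 0.23, SE), HLA-K and HLA-L did not pass the test, and HLA-J had at most 2 counts in any library.

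Ratios within a library, which do not depend on library scaling, showed how unevenly the members moved. The log2 ratio of B2M to the summed heavy chain counts of HLA-B, HLA-C and HLA-E was -0.55 ± 0.05 in HCT116oxR and -0.17 ± 0.09 in HCT116 (SD, n = 3 each), a difference of -0.38 ± 0.06 (SE). Each HCT116oxR library was below each HCT116 library, and the exact 2-sided permutation p was 0.1, the smallest that 3 against 3 libraries can give. The log2 ratio of TAP1 to TAP2 was -1.15 ± 0.05 in HCT116oxR and -1.37 ± 0.06 in HCT116 (SD, n = 3 each), also without overlap (exact permutation p = 0.1). For ERAP1 to B2M the log2 ratio was -4.68 ± 0.43 in HCT116oxR and -3.50 ± 0.16 in HCT116 (SD, n = 3 each, exact permutation p = 0.1). The ratio of HLA-B to HLA-C overlapped between the lines, at -0.85 ± 0.14 in HCT116oxR and -0.94 ± 0.03 in HCT116 on the log2 scale (SD, n = 3 each, exact permutation p = 0.5). Adjusted over the 4 ratios, none of these p-values could pass 0.05. Counts were not divided by transcript length, so a ratio shows unequal change and not relative amounts of transcript.

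**Figure D2:**
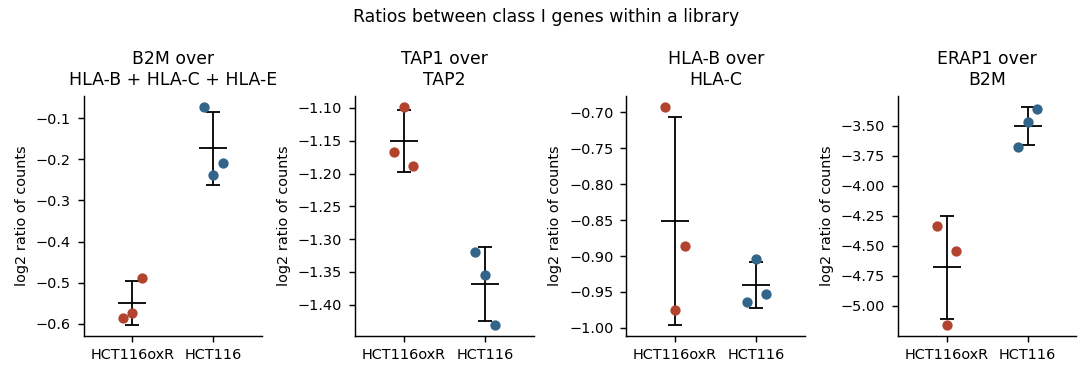
Log2 ratio of counts between class I genes within each library (vertical axes) for HCT116oxR (red, left) and HCT116 (blue, right), with the mean and SD of 3 libraries in black. B2M against the heavy chains and ERAP1 against B2M are lower in every HCT116oxR library, TAP1 against TAP2 is higher, and HLA-B against HLA-C overlaps.

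Of the 9 genes, 6 lie in the MHC region on chromosome 6 (GRCh38.p14 coordinates from RefSeq). HLA-E is at chr6:30489509-30494194, HLA-C at chr6:31268749-31272092, HLA-B at chr6:31353875-31357179, TAP2 at chr6:32821831-32838739, TAP1 at chr6:32845209-32853704 and TAPBP at chr6:33299694-33314078. ERAP1 is at chr5:96760813-96935854, B2M at chr15:44711517-44718145 and NLRC5 at chr16:56989557-57083520. Genes around the members were called in both directions, as were all genes tested (22.3% higher and 21.8% lower). Tested genes that start within 1 Mb of HLA-B numbered 84, of which 24 were higher and 15 lower, with a median log2 fold change of 0.02. Around TAPBP 11 of 40 were higher and 13 lower (median 0.05), and around TAP2 16 of 62 were higher and 19 lower (median -0.01). HLA-E had 59 tested neighbours, 18 higher and 7 lower, with a median of 0.15, against 0.20 for HLA-E itself. B2M had 31, with 14 higher and 2 lower (median 0.18, against 0.05 for B2M itself). ERAP1 had 7 tested neighbours, 2 higher and 3 lower, with a median of -0.31 against its own -1.09. Several of these windows share genes, since the MHC members are neighbours of each other.

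**Figure D3:**
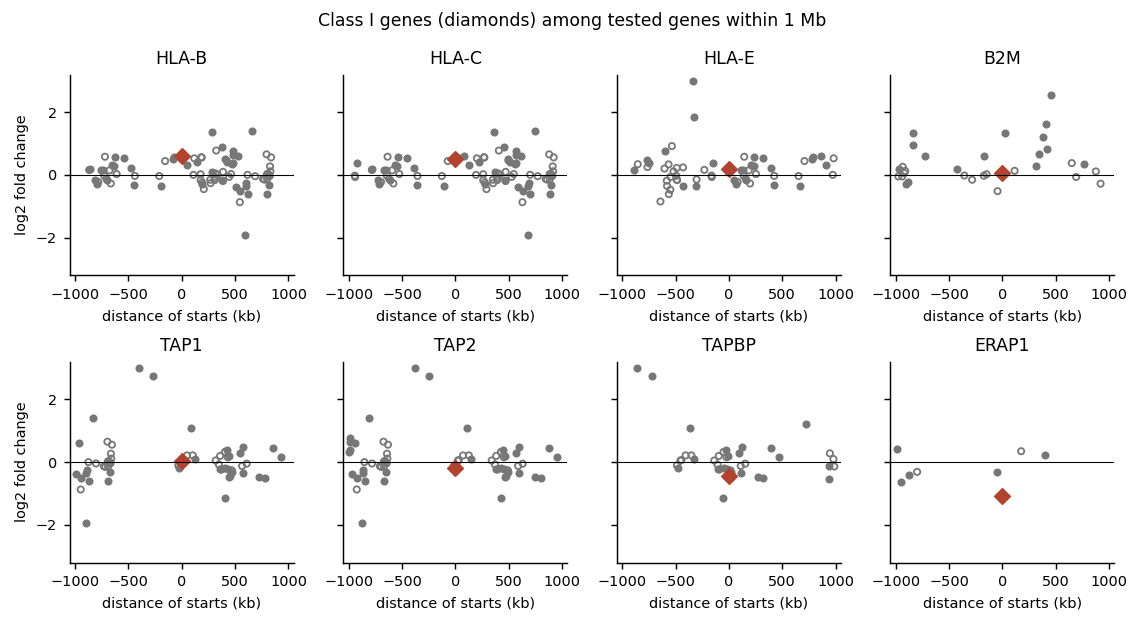
Log2 fold change of HCT116oxR over HCT116 (vertical axis) against the distance between gene starts in kb (horizontal axis) for tested genes within 1 Mb of each tested class I gene (red diamond at 0). Filled grey points passed adjusted p of 0.05, open points did not, and 4 points beyond 3 on the vertical axis are drawn at 3. Around HLA-B, HLA-C and TAPBP the neighbours lie on both sides of 0.

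Class I heavy chain promoters carry an NF-kB site, an interferon response element and an SXY module, whose X2 part resembles a cyclic AMP response element and whose Y part holds CCAAT or its complement. The 250 bases before the annotated start are shown for the heavy chain genes that rose most, for B2M, which was not called, and for TAPBP, which fell. Sequences are from RefSeq (GRCh38.p14), not from HCT116 itself, and 7 of the 9 genes had an entry.
HLA-B, chr6:31357180-31357429, minus strand: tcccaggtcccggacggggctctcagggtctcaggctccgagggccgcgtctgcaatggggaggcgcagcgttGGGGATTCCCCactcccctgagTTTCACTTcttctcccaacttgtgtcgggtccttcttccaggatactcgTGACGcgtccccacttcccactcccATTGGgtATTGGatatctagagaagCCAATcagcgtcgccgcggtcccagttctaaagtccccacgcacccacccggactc
HLA-C, chr6:31272093-31272342, minus strand: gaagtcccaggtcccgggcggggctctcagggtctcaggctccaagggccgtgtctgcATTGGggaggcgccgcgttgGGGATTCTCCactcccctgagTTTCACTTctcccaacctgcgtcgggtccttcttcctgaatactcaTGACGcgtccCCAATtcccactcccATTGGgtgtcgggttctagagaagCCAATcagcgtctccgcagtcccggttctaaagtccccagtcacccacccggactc
B2M, chr15:44711267-44711516, plus strand: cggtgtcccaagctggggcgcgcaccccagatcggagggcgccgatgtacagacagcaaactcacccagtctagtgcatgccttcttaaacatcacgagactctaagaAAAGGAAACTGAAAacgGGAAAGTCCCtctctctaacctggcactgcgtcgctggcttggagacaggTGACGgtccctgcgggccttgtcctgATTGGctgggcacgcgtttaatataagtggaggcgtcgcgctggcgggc
TAPBP, chr6:33314079-33314328, minus strand: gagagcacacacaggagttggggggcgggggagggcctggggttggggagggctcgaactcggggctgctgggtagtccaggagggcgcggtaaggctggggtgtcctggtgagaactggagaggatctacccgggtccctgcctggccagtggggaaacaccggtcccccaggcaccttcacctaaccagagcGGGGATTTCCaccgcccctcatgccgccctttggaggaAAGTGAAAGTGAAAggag
Capitals mark matches on either strand to CCAAT, to TGACG (the core of the X2 element), to AANNGAAA (the core bound by interferon regulatory factors) and to the NF-kB consensus. These patterns were chosen with the results known. The windows of HLA-B, HLA-C and B2M held all 4 patterns. TAPBP held AANNGAAA as 2 overlapping matches next to the start and the NF-kB consensus, and neither CCAAT nor TGACG. In HLA-B the NF-kB consensus, which allows several letters at some positions, matched on both strands at 2 shifted and overlapping positions, and in HLA-C it is a single match. Of the windows not printed, that of TAP2 held TGACG and AANNGAAA. TAP1 has 2 entries, of which 1 held CCAAT, AANNGAAA and the NF-kB consensus and the other none of the 4 patterns. ERAP1 also has 2, of which 1 held CCAAT and the NF-kB consensus and the other AANNGAAA. Among the 35116 promoters of the table cut to the same length, 32% held CCAAT, 21.2% TGACG, 20.3% AANNGAAA and 5.21% the NF-kB consensus. The HLA-B and HLA-C windows were 89% identical over 254 aligned columns. A match in letters is a description and shows neither binding nor a cause of any change.

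The factors that act on these promoters went both ways. Of 19 tested class I transcription regulators 4 rose and 6 fell, with a median log2 fold change of -0.06. The shares over all genes tested were 22.3% higher and 21.8% lower. NFKB1, which encodes the p105 and p50 forms of NF-kB, fell to 64.0 ± 2.35 CPM in HCT116oxR, against 114 ± 3.01 CPM in HCT116 (SD, n = 3 each, log2 fold change -0.84 ± 0.06, SE). IRF1, an interferon-induced activator of class I genes, had 22.4, 20.4 and 20.9 CPM in HCT116oxR libraries and 31.2, 27.1 and 33.8 CPM in HCT116 libraries (-0.53 ± 0.10, edgeR adjusted p = 2.99e-06). So the heavy chain genes and IRF1 moved in opposite directions, without overlap between the lines for either. IRF2 fell by 0.45 ± 0.12 and IRF9, a DNA-binding part of an interferon-activated complex, rose by 0.50 ± 0.12 (log2, SE). EZH2, the Polycomb methyltransferase that can silence class I genes, rose by 0.19 ± 0.05. RFX5, the NLRC5 partner that contacts the X box, was lower by a small amount (-0.19 ± 0.06, SE), a call lost without HCT116oxR replicate 1 (-0.15, edgeR adjusted p = 0.0605). The count of regulators called was 10 in all and 6 without HCT116oxR replicate 1 or without HCT116 replicate 1.

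Interferon signalling genes showed a similar split. Of 11 tested, 3 rose and 5 fell (median -0.12), where 22.3% of all genes tested rose and 21.8% fell. IFNGR1, the ligand-binding chain of the interferon gamma receptor, fell to 36.8 ± 0.615 CPM in HCT116oxR, against 53.8 ± 1.28 CPM in HCT116 (SD, n = 3 each), and IFNGR2, its partner chain, fell by 0.23 ± 0.06 (log2, SE). TYK2, a kinase of the type I interferon receptor, fell by 0.43 ± 0.05, while IFNAR2, a chain of that receptor, rose by 0.35 ± 0.10. SOCS3, a feedback inhibitor of cytokine signalling, rose to 42.5 ± 1.49 CPM in HCT116oxR, against 22.1 ± 2.07 CPM in HCT116 (log2 fold change 0.95 ± 0.09, SE). IFNB1 and IFNL1 each had 1 count over all 6 libraries and IFNG had 0. The 8 calls became 5 without HCT116oxR replicate 3 or without HCT116 replicate 2.

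Upstream of the transporter, proteasome genes were called in both directions. Of 10 tested genes 5 fell and 2 rose, with a median log2 fold change of -0.17. Over all genes tested 21.8% fell and 22.3% rose, so counts this small give no direction for the list. PSMB7 and PSMB6, which encode catalytic subunits of the constitutive proteasome, fell by 0.56 ± 0.06 and 0.42 ± 0.05 (log2, SE). POMP, the assembly chaperone, rose to 112 ± 1.28 CPM in HCT116oxR, against 84.4 ± 3.27 CPM in HCT116 (0.41 ± 0.05). PSME3 and PSME4, which encode proteasome activators, fell by 0.18 ± 0.04 and 0.17 ± 0.04. The subunits of the immunoproteasome, the form induced by interferon gamma that favours class I peptides, were few and not called. PSMB9, which shares a two-way promoter region with TAP1, had 3.17, 4.70 and 4.89 CPM in HCT116oxR libraries and 4.68, 3.70 and 3.72 CPM in HCT116 libraries (log2 fold change 0.07 ± 0.24, SE). PSMB10 stood at -0.17 ± 0.18, and the sign of the difference changed for PSMB9 without HCT116oxR replicate 2 or 3 and for PSMB10 without HCT116 replicate 3. PSMB8 had 3 to 12 counts in a library and was below the filter.

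Loading and trimming partners were mixed. Of 11 tested 3 rose, 2 fell and 6 were not called, and the median log2 fold change was 0.07. The share called over all genes tested was 44.1%. PDIA3, which encodes the oxidoreductase ERp57 of the peptide-loading complex, rose to 330 ± 8.29 CPM in HCT116oxR, against 292 ± 10.7 CPM in HCT116 (0.18 ± 0.04, SE). GANAB, which encodes the catalytic subunit of glucosidase II and so feeds glycoproteins to calreticulin, rose by 0.29 ± 0.03, and PDIA6 rose by 0.28 ± 0.04. HSPA5, the chaperone BiP, fell to 1005 ± 26.9 CPM in HCT116oxR, against 1300 ± 18.2 CPM in HCT116 (-0.37 ± 0.03), and the peptidase gene NRDC fell by 0.30 ± 0.05. ERAP2, the trimming partner of ERAP1, was at 0 counts in all 6 libraries. ERAP2 lies inside the annotated span of ERAP1, and how reads in overlapping genes were counted is not given in the sources used here. The tapasin relative TAPBPL had 0 to 1 counts in HCT116oxR libraries and 1 to 8 counts in HCT116 libraries.

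Among genes of trafficking and turnover 3 of 13 rose and 7 fell (median -0.15), where 22.3% of all genes tested rose and 21.8% fell. SEC24C and SEC24D, which encode cargo adaptors of vesicles leaving the endoplasmic reticulum, fell by 0.44 ± 0.04 and 0.51 ± 0.07 (log2, SE). Of the membrane ubiquitin ligases, MARCH9, which can take class I molecules from the surface, rose to 23.3 ± 1.11 CPM in HCT116oxR, against 12.3 ± 0.783 CPM in HCT116 (SD, n = 3 each), while MARCH8 fell by 0.46 ± 0.08. TMEM127, which takes part in class I degradation, fell by 0.32 ± 0.06.

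**Figure D4:**
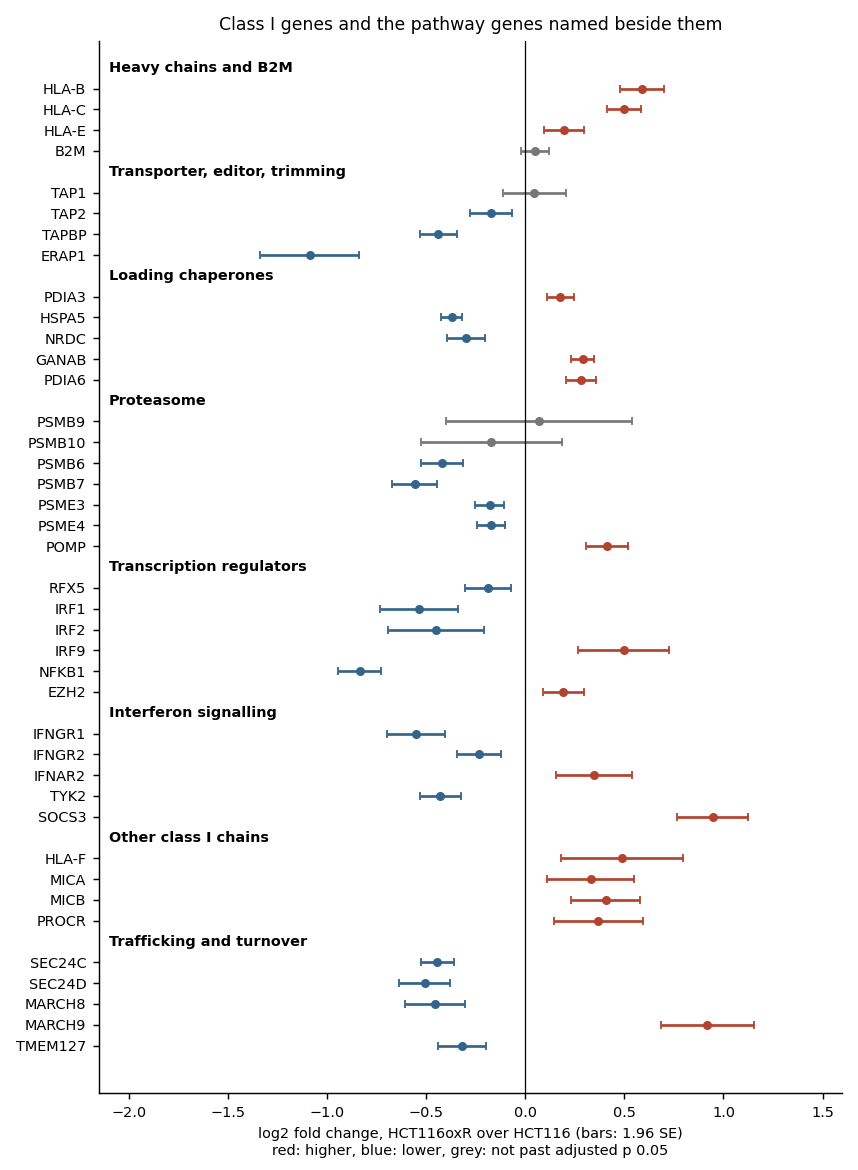
Log2 fold change of HCT116oxR over HCT116 with bars of the 95% interval (horizontal axis) for the tested class I genes and for the genes named in 6 pathway lists (rows). Red genes passed as higher, blue as lower and grey did not pass. The heavy chains and the other class I chains, of which only called ones are drawn, lie to the right. ERAP1, TAPBP, TAP2, NFKB1 and IFNGR1 lie to the left.

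Other class I and class I-like chains that were called were higher. Of 11 tested 4 rose, 0 fell and 7 were not called, and the median log2 fold change was 0.17. Over all genes tested 44.1% were called, 22.3% higher and 21.8% lower, so counts this small give no direction for the list. HLA-F, a non-classical heavy chain gene, had 9.88, 12.2 and 12.9 CPM in HCT116oxR libraries and 7.70, 6.81 and 10.4 CPM in HCT116 libraries, which overlapped (0.49 ± 0.16, SE). MICB and MICA, stress-induced ligands of the NKG2D receptor, rose by 0.41 ± 0.09 and 0.33 ± 0.11, and PROCR, the protein C receptor with a class I-like fold, rose by 0.37 ± 0.11. The HLA-F call was lost without HCT116oxR replicate 3 (0.42) or HCT116 replicate 2 (0.37), that of PROCR without HCT116oxR replicate 3 (0.30) and that of MICA without HCT116oxR replicate 1 (0.29). Without HCT116oxR replicate 3 the list held 2 calls. HLA-G had 0 to 1 counts in a library.

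Class II genes, which present peptides to CD4+ T cells and are normally restricted to immune cells or induced by interferon gamma, were near the detection limit and higher where called. Of 12 listed genes 5 were tested, of which 3 rose and 0 fell, where 22.3% of all genes tested rose and 21.8% fell. HLA-DRA, the alpha chain of HLA-DR, had 24, 33 and 26 counts in HCT116oxR libraries and 0, 6 and 0 counts in HCT116 libraries. HLA-DRB1, its beta chain, had 18, 11 and 15 counts in HCT116oxR libraries and 4, 2 and 0 counts in HCT116 libraries. The lines did not overlap for either gene (edgeR adjusted p = 1.97e-07 and 4.46e-04), and with so few counts in HCT116 their fitted folds depend on the model. Without HCT116 replicate 2, the 1 HCT116 library with HLA-DRA counts, its log2 fold change was 7.78, against 3.64 with it. HLA-DMB, a peptide exchange factor of class II, had 44, 56 and 54 counts in HCT116oxR libraries and 29, 7 and 34 counts in HCT116 libraries, a call lost without HCT116 replicate 2 (log2 fold change 0.67, against 1.08 with it). CIITA, the class II activator, had 0 to 3 counts in HCT116oxR libraries and 0 to 6 counts in HCT116 libraries. CD74, the invariant chain, had 2 to 7 counts in HCT116oxR libraries and 0 to 5 counts in HCT116 libraries. HLA-DPA1 had 3, 1 and 10 counts in HCT116oxR libraries and HLA-DQB1 had 5, 3 and 3, both with 0 in each HCT116 library. HLA-DOA had 8, 4 and 6 counts in HCT116oxR libraries and 3, 0 and 0 counts in HCT116 libraries. With no filter HLA-DPA1 passed (edgeR adjusted p = 0.0198), while HLA-DQB1 (0.0518) and HLA-DOA (0.124) did not. HLA-DPB1 had 1 count over all libraries and HLA-DQA1 had 0. The leukocyte marker sum, most of it from CD68, was lower in HCT116oxR, with PTPRC at 0 in every library. Which cells the class II counts came from was not tested.

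Some miRNAs are reported to bind transcripts of these genes. The miR-148 and miR-152 family is known to target HLA-C, miR-200a-5p and miR-346 TAP1, miR-125a-5p TAP2, miR-27a-3p the transcript of calreticulin, and miR-9-5p has been linked to B2M and other class I genes. Their mature sequences (RefSeq, GRCh38.p14) are shown with the seed, bases 2 to 8, in capitals, because the seed is what pairs with a target.
miR-148a-3p: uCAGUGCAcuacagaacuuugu
miR-148b-3p: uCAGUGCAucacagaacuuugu
miR-152-3p: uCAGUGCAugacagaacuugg
miR-200a-5p: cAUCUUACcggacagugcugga
miR-346: uGUCUGCCcgcaugccugccucu
miR-125a-5p: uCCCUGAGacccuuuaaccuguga
miR-9-5p: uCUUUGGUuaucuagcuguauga
miR-27a-3p: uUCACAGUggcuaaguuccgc
miR-148a-3p, miR-148b-3p and miR-152-3p share the seed CAGUGCA, and the other 5 each have their own.

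Of the 8 miRNAs 4 rose and 2 fell in HCT116oxR. Among the 975 miRNAs tested 44.7% were called (edgeR, adjusted over all of them), 23.5% higher and 21.2% lower, and the lines did not overlap for 55.2%. The miR-148 family members went different ways. miR-148a-3p had 6801, 6725 and 6700.0 CPM in HCT116oxR libraries and 5364, 5320 and 5354 CPM in HCT116 libraries (log2 fold change 0.33 ± 0.04, SE). The scarcer miR-152-3p fell to 50.3, 47.4 and 41.8 CPM in HCT116oxR libraries, against 88.7, 91.3 and 95.1 CPM in HCT116 libraries (-0.98 ± 0.09). No difference was called for miR-148b-3p (-0.07 ± 0.04, adjusted p = 0.200 in edgeR). Summed over the shared seed, the family stood at 11821 ± 180 CPM in HCT116oxR and 10729 ± 87.3 CPM in HCT116 (SD, n = 3 each), 1.10-fold higher without overlap (exact permutation p = 0.1), of which miR-152-3p made up 0.393% in HCT116oxR and 0.855% in HCT116. HLA-C and this sum were thus both higher in HCT116oxR.

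The miRNAs of the transporter genes rose. miR-200a-5p had 438, 427 and 401 CPM in HCT116oxR libraries and 292, 325 and 295 CPM in HCT116 libraries (0.47 ± 0.06, SE). miR-346 had 10.6, 7.60 and 9.06 CPM in HCT116oxR libraries and 6.14, 4.75 and 4.75 CPM in HCT116 libraries (0.80 ± 0.18). TAP1, their reported target, was not called. miR-125a-5p had 2205, 2635 and 2744 CPM in HCT116oxR libraries and 1972, 1976 and 2001 CPM in HCT116 libraries (0.35 ± 0.07), and its reported target TAP2 was lower. None of these miRNAs overlapped between the lines. miR-27a-3p fell to 2874 ± 295 CPM in HCT116oxR, against 5088 ± 194 CPM in HCT116 (-0.82 ± 0.07), while for CALR, the calreticulin gene, no difference was called (0.07 ± 0.03, adjusted p = 0.0908 in edgeR). miR-9-5p was not called (0.07 ± 0.04), except when library totals were used with no scaling factor (0.12, edgeR adjusted p = 0.0321). Whether these miRNAs act on the transcripts here was not tested.

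**Figure D5:**
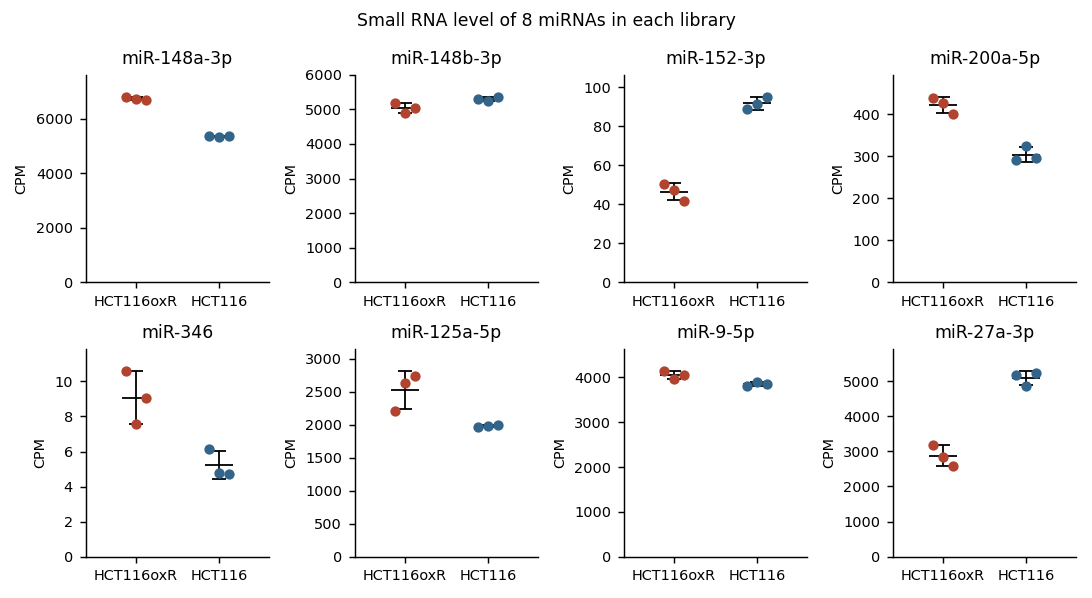
Level of 8 miRNAs reported to target class I pathway transcripts (CPM, vertical axes from 0) in the 3 HCT116oxR libraries (red, left) and 3 HCT116 libraries (blue, right), with the mean and SD in black. miR-148a-3p, miR-200a-5p, miR-346 and miR-125a-5p are higher and miR-152-3p and miR-27a-3p lower in every HCT116oxR library.

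HLA-B itself contains a miRNA hairpin, MIR6891, at chr6:31355224-31355316, which lies inside the span of the gene. Its mature 5p and 3p products are shown because their counts can be set beside those of the gene that holds them.
miR-6891-5p: uAAGGAGGgggaugagggg
miR-6891-3p: cCCUCAUCuuccccuccuuuc
miR-6891-5p had 8, 6 and 3 counts in HCT116oxR libraries and 0 counts in each HCT116 library. miR-6891-3p had 6, 0 and 7 counts in HCT116oxR libraries and 0, 0 and 1 counts in HCT116 libraries. Both were below the filter on low counts. With no filter the 5p product passed (edgeR adjusted p = 0.0230) and the 3p product did not (edgeR adjusted p = 0.208).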

How the data were processed

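Total RNA and small RNA of HCT116oxR and HCT116 cells were sequenced, with 3 libraries per line and kind (12 libraries in all). The labels' protocols ask for RNA integrity numbers above 8.0. The deposited values are raw counts per gene (54261) and per mature miRNA (2588). The submitters' processing notes name the aligners HISAT2 for total RNA and BWA for small RNA, and the build GRCh38 for both. On the counting tool, the annotation release, strand and multi-mapped reads, nothing is stated (not given in the sources used here).

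The counts were analysed in R 4.3.3 with edgeR 4.0.16, each table as a whole. filterByExpr (10 counts in a library of median size, 15 in all) left 17511 genes and 975 miRNAs. TMM factors were 0.996 to 1 in total RNA and 0.969 to 1.04 in small RNA. The quasi-likelihood F test was 2-sided, with a threshold of 0.05 on the Benjamini-Hochberg adjusted p. SE was taken from the size of the log2 fold change and the square root of F, and 95% intervals use the normal multiple of SE. The common biological coefficient of variation was 4.77% for genes and 12.4% for miRNAs. Ratios were compared with exact permutation tests (scipy 1.17.1). Positions came from RefSeq (GRCh38.p14), to which 16327 of the 17511 tested genes were matched. Alternatives were DESeq2 1.42.0 and the settings named in the closing section. All pairs of libraries of the same line differed by more than sampling noise (chi-square per degree of freedom 2.21 or more).

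All 9 members and all listed miRNAs are named whatever their test, as are PSMB8, PSMB9, PSMB10, IRF1 and RFX5, and up to 5 genes with the smallest adjusted p among those called in each of the 10 further gene lists. Genes named outside this rule, such as CALR, CD74, CIITA, HLA-G and TAPBPL, were chosen after their values were seen. One gene of the regulator list is not reported here. The members, lists and tests were chosen with earlier results of these data known.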

Additional observations from a re-analysis of the deposited data

How the results depend on the processing

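Each comparison was repeated with DESeq2 size factors, with unscaled library totals, with no filter on low counts, with DESeq2, with a replicate block, against a fold of 1.5 and without each library. The 6 called members kept their direction and call under each of these, except TAP2 without HCT116oxR replicate 3 and 5 members (HLA-B, HLA-C, HLA-E, TAP2, TAPBP) against a fold of 1.5, where ERAP1 remained. Against that fold 1430 genes and 138 miRNAs passed, with 1 of the members and 2 of the listed miRNAs (miR-152-3p and miR-27a-3p). Replicate numbers are not stated to pair the libraries. Same-number deviations correlated at -0.0615 to 0.0267 in total RNA and -0.14 to 0.222 in small RNA. Those of unlike numbers correlated at -0.0628 to 0.101 and -0.283 to 0.268. With 3 libraries per line such correlations cannot show whether cultures were paired. The replicate block called 7565 genes and 405 miRNAs, against 7721 and 436 without it, and changed no call of a member or listed miRNA. Leaving out a library gave 6994 to 7275 genes, 5 to 6 members and 361 to 445 miRNAs. It gave -0.0376 to 0.25 for PSMB9 and -0.36 to 0.0887 for PSMB10, neither of them called. Median log2 fold changes of neighbouring genes moved with the window. In 0.5 Mb they were 0.071 around HLA-B, 0.0020 around HLA-E, 0.29 around B2M, 0.054 around TAP1, -0.00056 around TAPBP and 0.23 around ERAP1 (3 genes). In 2 Mb they were 0.026 around HLA-E, 0.061 around B2M and 0.018 around TAP1. The cause was not tested. NLRC5, PSMB8, most class II genes and the miR-6891 products had too few counts for precise values, and whether depth or the counting set this was not tested.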
